A study of Mus musculus with 375 samples.

Results

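The transcripts described here are those of 10 genes of glucose use in single cardiomyocytes from pressure-overloaded mouse hearts: the glucose transporters Slc2a1 and Slc2a4, the hexokinases Hk1 and Hk2, the glycolytic enzymes Pfkm, Aldoa, Gapdh and Pkm, and the lactate dehydrogenases Ldha and Ldhb. They were chosen by name for their place in this route, from the 21872 genes of the deposited count table. All 10 had reads and were tested in each comparison. Cardiomyocytes had been picked 2 weeks after transverse aortic constriction (TAC), a surgical narrowing of the aorta that loads the left ventricle with pressure, and each was sequenced by Smart-seq2, a plate method that gives 1 full-length cDNA library per cell.

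3 groups of 8-week-old male mice, all labelled C57BL/6N, were compared, and all had undergone TAC. CD8-depleted mice were given repeated intraperitoneal injections of an antibody against CD8, which removes CD8+ T cells, from the day of surgery onwards. CD3e-/- mice lack the CD3 epsilon chain of the T cell receptor complex in all cells and so have no T cells. WT mice had neither change. The deposited cells numbered 136 for CD8-depleted, 111 for CD3e-/- and 128 for WT hearts, and each carried a set number, 1 or 2. Rod-shaped live cells of the left ventricle were picked by pipette and kept by the authors only where Tnnt2 was detected by PCR, so the cells are a selected sample. The methods give 2 mice as the source of the cells, but no label links the set numbers to mice, and the spread between the 2 sets of a group may therefore be technical in part.

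After cells with fewer than 3000 detected genes and 2 cells with identical counts were left out, 320 of 375 cells remained. The sets held 62 and 49 CD8-depleted, 11 and 77 CD3e-/- and 59 and 62 WT cells. The counts of the cells in a set were added up, and a level is given as CPM, the counts of a gene per 1000000 counts on nuclear genes, since genes encoded in mitochondrial DNA took a median of 77.3% to 94.1% of the counts of a cell. CD3e-/- set 1 stood apart. It held 604652 nuclear counts, against 5469742 to 24057660 in the other sets, and 31 cells had been deposited of which 19 had fewer than 3000 genes. Its 12 cardiomyocyte marker genes summed to 64364 CPM, against 144782 to 201507 CPM in the other 5 sets, and its leukocyte markers, of which 6 of 12 were at 0, to 117 CPM against 3.60 to 30.5 CPM. Its endothelial (1867 CPM) and mural (1217 CPM) sums were also the highest of the 6 sets. CD8-depleted set 2 had the next highest endothelial sum, 1284 CPM against 307 to 418 CPM in the other 4 large sets, and a fibroblast sum of 355 CPM against 25.3 to 218 CPM. Results are therefore given over all 6 sets and over the 5 sets without it, where CD3e-/- is 1 set. The cardiomyocyte markers were detected in full in all 6 sets. The gene of the CD3e-/- allele and that of the depleted cells could not check the labels, since cardiomyocytes hardly express them and the sources used here do not say whether the allele still gives a transcript. Cd3e had 4 and 37 counts in CD3e-/- sets, 1 and 2 in CD8-depleted sets and 0 in both WT sets, and Cd8a had 3 counts in all, in CD8-depleted set 1.

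Glucose enters cardiomyocytes through GLUT1 (Slc2a1), which lies at the cell surface without a stimulus, and GLUT4 (Slc2a4), which insulin and contraction bring to the membrane. Hexokinase traps it as glucose 6-phosphate, phosphofructokinase commits it to glycolysis, aldolase, glyceraldehyde 3-phosphate dehydrogenase and pyruvate kinase carry it on to pyruvate, and lactate dehydrogenase interconverts pyruvate and lactate. The adult heart burns mainly fatty acids and takes up lactate as a fuel. Its lactate dehydrogenase is built chiefly of the B (heart) subunit encoded by Ldhb, whereas the A (muscle) subunit encoded by Ldha favours lactate production and is a known target of hypoxia-inducible factors.

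The promoters of the 2 lactate dehydrogenase genes are shown for the results on the balance of their transcripts. RefSeq (GRCm38.p6, the assembly also called mm10) gave 250-base windows that end at the base before a transcript start for 9 of the 10 genes, 17 windows in all. Capitals mark ACGTG, the core letters of the hypoxia response element, or its reverse complement CACGT. Where both overlap they spell CACGTG, which reads the same on both strands.
Ldha, chr7:46845554-46845803, plus strand: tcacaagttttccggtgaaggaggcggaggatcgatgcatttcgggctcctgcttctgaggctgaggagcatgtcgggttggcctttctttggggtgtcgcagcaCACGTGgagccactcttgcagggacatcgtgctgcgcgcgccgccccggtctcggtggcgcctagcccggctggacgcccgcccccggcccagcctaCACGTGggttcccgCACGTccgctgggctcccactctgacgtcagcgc
Ldhb, chr6:142507958-142508207, minus strand: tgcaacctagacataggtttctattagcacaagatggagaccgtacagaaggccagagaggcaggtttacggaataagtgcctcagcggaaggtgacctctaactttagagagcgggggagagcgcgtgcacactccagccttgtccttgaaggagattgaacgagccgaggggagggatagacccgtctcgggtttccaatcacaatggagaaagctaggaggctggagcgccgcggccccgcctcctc
The Ldha window held 5 matches to these marked letters in 3 stretches and the Ldhb window held 0. The form GCGTG was not searched, and the Ldhb window does hold it. Over the 17 windows 8 held a match, while 16.6% of all 32851 mouse promoter windows of this length did. The 8 lay in 6 of the 9 genes, a count per gene that has no background here, since genes had from 1 to 4 windows. These 8 are not all separate sites, since 2 of the Aldoa windows overlap and share the same match. A match is only a description of the letters, and the window before the other Ldha start held 0.

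The 10 genes lie apart in the mm10 assembly, with Slc2a1 on chromosome 4 (119108711 to 119137983), Slc2a4 on 11 (69942539 to 69948188), Hk1 on 10 (62268855 to 62379908), Pfkm on 15 (98092589 to 98132451) and Pkm on 9 (59656368 to 59679375). Chromosome 6 holds Hk2 (82725025 to 82774454), Gapdh (125161715 to 125166467) and Ldhb (142490249 to 142507957), and chromosome 7 holds Ldha (46841475 to 46855627) and Aldoa (126795234 to 126809108). Reads were counted over all exons of a gene, whose joint length ran from 1570 bases for Ldhb and 3310 for Ldha to 8532 for Hk1, so a gene with long alternative exons is understated per kilobase.

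Per kilobase of exon, the 10 transcripts covered a wide range within each set. In both WT sets and in CD3e-/- set 2 the order was Ldhb, Aldoa, Gapdh, Ldha, Pfkm, Pkm, Slc2a4, Hk2, Hk1 and Slc2a1. In WT sets 1 and 2 this ran down through 1869 and 2894 CPM per kb for Ldhb, 1304 and 1787 for Aldoa and 1126 and 1553 for Gapdh to 11.5 and 7.59 for Hk1 and 7.04 and 6.14 for Slc2a1. Ldhb, Aldoa and Gapdh could not be told apart in this order, nor could Pfkm and Pkm or Slc2a4 and Hk2. The spread between sets was larger than the step between their group means in at least 1 group. In CD3e-/- alone the same held for Gapdh and Ldha, Pkm and Slc2a4, and Hk1 and Slc2a1. In CPM not divided by exon length, Aldoa and Gapdh lay above Ldhb in all 6 sets. WT sets 1 and 2 had 4837 and 6629 CPM of Aldoa, 4653 and 6420 CPM of Gapdh and 2934 and 4544 CPM of Ldhb. Per kilobase, Ldhb was not first in the CD8-depleted sets. Gapdh led set 1 with 1811 CPM per kb, ahead of Aldoa (1661) and Ldhb (1505), and Aldoa led set 2 with 1213 CPM per kb, ahead of Ldhb (962) and Gapdh (895). In CD3e-/- set 1 Ldha came first with 244 CPM per kb and Gapdh was at 60.8. The 10 genes together took 1.96% and 1.25% of the nuclear counts in CD8-depleted sets and 0.289% and 1.56% in CD3e-/- sets, against 1.60% and 2.12% in WT sets.

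**Figure D1:**
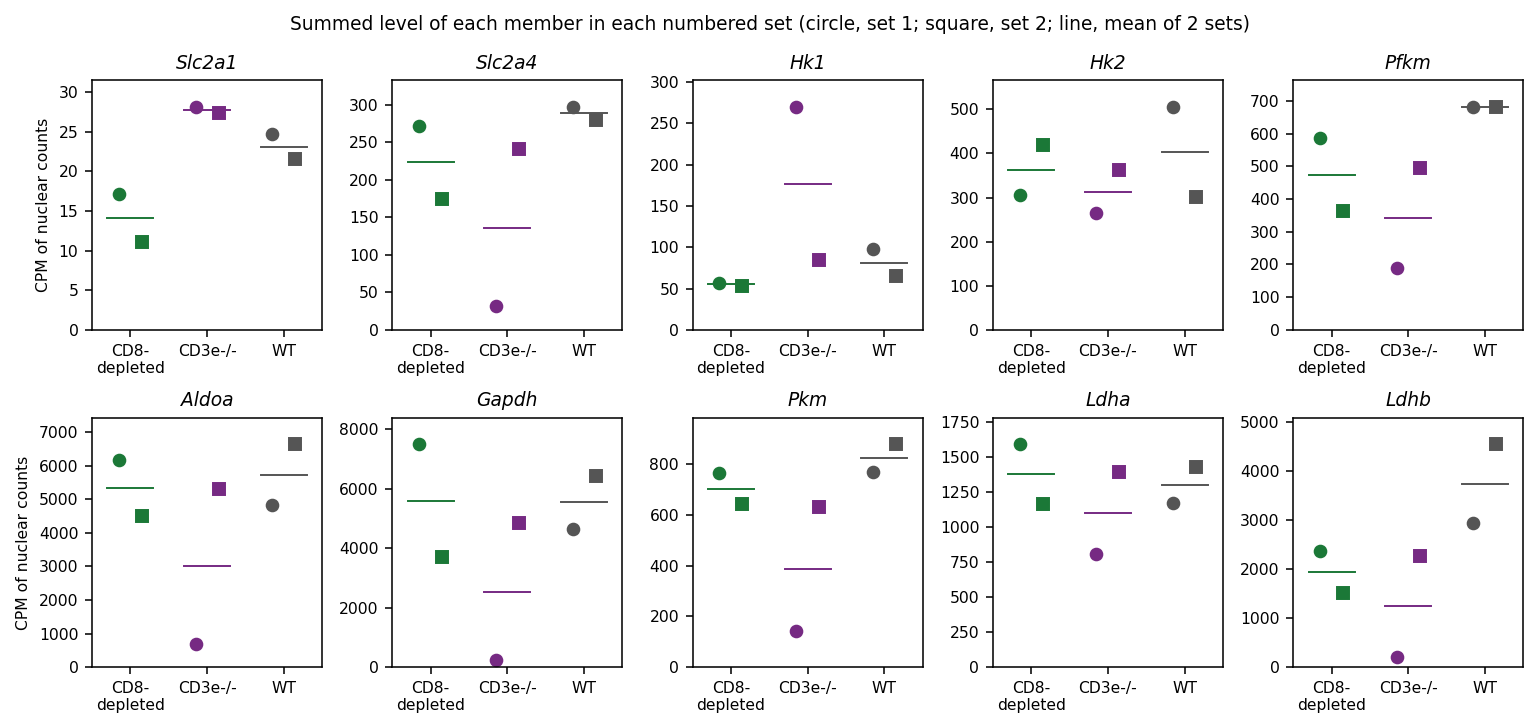
Level of each of the 10 genes in CPM of nuclear counts (vertical axes, each starting at 0) in the CD8-depleted, CD3e-/- and WT groups, with a circle for set 1, a square for set 2 and a line at their mean. Ldhb was lower in both CD8-depleted sets (2363 and 1510.5 CPM) than in both WT sets (2934 and 4544 CPM), and the circle of CD3e-/- set 1 is the lowest point for 8 of the 10 genes, all but Slc2a1 and Hk1.

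None of the 10 genes passed an adjusted p of 0.05 in edgeR's quasi-likelihood test in any of the 3 comparisons, over 6 or over 5 sets. The background was as low: over 6 sets 0% of 12936 genes passed in each comparison, with 251 higher and 90 lower at an unadjusted p under 0.05 for CD8-depleted against WT, 1028 and 43 for CD3e-/- against WT and 453 and 52 for CD3e-/- against CD8-depleted, and none of the 10 among them. DESeq2 on the same 6 sets called 8, 611 and 16 genes in these comparisons, again none of the 10. Over 5 sets edgeR called 0.239%, 0.127% and 0.015% of 13374 genes. For CD8-depleted against WT over 5 sets, where neither group loses a set, edgeR put 616 genes higher and 714 lower at an unadjusted p under 0.05. Of the 10, Ldhb alone was among them. Most estimates of the 10 lay below 0. Over 5 sets, 9 of 10 were below 0 for CD8-depleted against WT with a median log2 fold change of -0.32, 9 of 10 for CD3e-/- against WT with a median of -0.39, and 7 of 10 for CD3e-/- against CD8-depleted with a median of -0.15. The medians over all genes were -0.02, -0.06 and -0.01. Over 6 sets the medians of the 10 were -0.30, -1.29 and -0.88. The comparisons share groups, so these directions are not independent. When CD3e-/- set 2 was left out in place of set 1, so that the sparse set 1 stood alone for CD3e-/-, 8 of the 10 (all but Slc2a1 and Hk1) were called lower against WT, as were 18.9% of 13837 genes, and the same 8 against CD8-depleted, as were 16.2%. None of the 10 was called higher there, against 14.2% and 8.93% of genes.

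**Figure D2:**
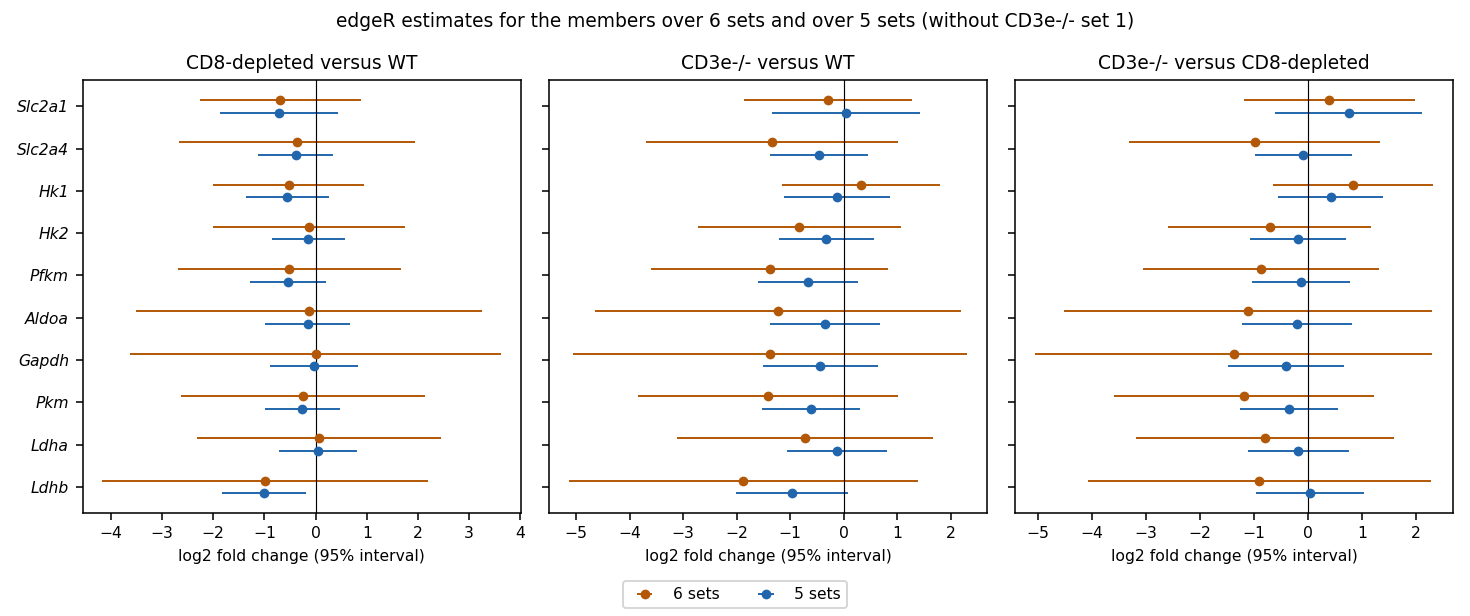
log2 fold change of each gene with its 95% interval (horizontal axes) from edgeR over 6 sets (orange) and over 5 sets, without CD3e-/- set 1 (blue), in the 3 comparisons. Intervals narrow over 5 sets, and only that of Ldhb for CD8-depleted against WT (-1.83 to -0.18) leaves out 0, before adjustment for the number of genes. Of all 13374 genes, 616 were higher and 714 lower in that comparison at an unadjusted edgeR p under 0.05.

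Of the transporters, Slc2a4 was the main transcript and Slc2a1 was rare. Slc2a4 had 272 and 174 CPM in CD8-depleted sets and 31.4 and 240.5 CPM in CD3e-/- sets, against 297 and 280.0 CPM in WT sets. In CPM all 4 sets of the other groups lay below both WT sets, though with TMM scaling (a library factor that edgeR takes from the bulk of the genes) CD8-depleted set 1 lay between them. The log2 fold change was -0.38 (SE 0.36) for CD8-depleted and -0.47 (SE 0.45) for CD3e-/- over 5 sets, with adjusted p of 0.751 and 1. Slc2a1 had 17.1 and 11.2 CPM in CD8-depleted sets and 28.1 and 27.4 CPM in CD3e-/- sets, against 24.7 and 21.5 CPM in WT sets. The CD8-depleted sets were the lowest, with a log2 fold change of -0.71 (SE 0.57, adjusted p = 0.703) against WT over 5 sets. For CD3e-/- against WT the estimate was -0.29 over 6 sets and 0.04 over 5, and with plain library totals 0.30 over 6, so that no direction held.

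Slc2a1 reads were found in 46.8% and 36.7% of the CD8-depleted cells and 45.5% and 67.5% of the CD3e-/- cells, against 54.2% and 48.4% of WT cells. After thinning every cell to 50000 nuclear counts, which left out 17 of 320 cells, the shares were 36.8% and 30.4% for CD8-depleted, 57.3% for CD3e-/- set 2 (set 1 kept 4 cells, 2 with a read) and 42.4% and 30.6% for WT, and CD8-depleted set 1 then lay between the WT sets. The highest cell of CD3e-/- set 2 had 938 CPM of Slc2a1, while the median cell had 16.2 CPM. As a share of the 2 transporter transcripts per kilobase, Slc2a1 made up 5.88% and 5.98% in CD8-depleted sets and 47.02% and 10.1% in CD3e-/- sets, against 7.62% and 7.08% in WT sets. CD3e-/- set 1 rested on 17 reads of Slc2a1 and 19 of Slc2a4, with a Wilson 95% interval of 31.8% to 62.8%. The CD8-depleted sets differed from the WT sets by a mean of -1.42 percentage points, a difference that turned to 0.47 when cells were thinned.

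Hk2, the insulin-responsive hexokinase of muscle, was the larger hexokinase transcript in 5 of 6 sets by counts and in all 6 per kilobase. It had 305 and 418 CPM in CD8-depleted sets and 265 and 361 CPM in CD3e-/- sets, against 505 and 300.4 CPM in WT sets. The WT sets spanned both CD8-depleted sets and CD3e-/- set 2, so the groups overlapped. Hk1, the form found in most tissues, had 57.2 and 53.2 CPM in CD8-depleted sets and 269.6 and 84.4 CPM in CD3e-/- sets, against 97.9 and 64.8 CPM in WT sets. Both CD8-depleted sets lay below both WT sets, with a log2 fold change of -0.55 (SE 0.40, adjusted p = 0.685) over 5 sets. The high value of CD3e-/- set 1 came to 61.96% from 1 cell, and over 5 sets CD3e-/- against WT was at -0.12 (SE 0.49).

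The Hk1 share of the 2 hexokinase transcripts per kilobase was 11.6% and 8.17% in CD8-depleted sets and 41.6% and 14.04% in CD3e-/- sets, against 11.9% and 13.1% in WT sets. The mean difference of CD8-depleted from WT was -2.65 percentage points, with CD8-depleted set 1 only just below WT set 1 and their Wilson intervals (10.6% to 12.7% and 11.5% to 12.4%) overlapping. It was -0.937 points without CD8-depleted set 2, -4.36 points without CD8-depleted set 1 and -1.05 points in thinned cells. Nearly every cell had reads of Hk2, while Hk1 was read in 77.4% and 79.6% of the CD8-depleted cells and 90.9% and 92.2% of the CD3e-/- cells, against 96.6% and 90.3% of WT cells. In thinned cells the shares were 75.4% and 65.2% for CD8-depleted, 100% (of 4 cells) and 84.0% for CD3e-/- and 86.4% and 66.1% for WT, and the CD8-depleted and WT sets overlapped.

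Pfkm, the muscle subunit of phosphofructokinase, had 585 and 362 CPM in CD8-depleted sets and 189 and 495 CPM in CD3e-/- sets, against 680.5 and 681 CPM in WT sets. In CPM all 4 CD8-depleted and CD3e-/- sets lay below both WT sets, which were close to each other, though with TMM scaling CD8-depleted set 1 lay between the WT sets. The log2 fold changes against WT over 5 sets were -0.54 (SE 0.36, adjusted p = 0.645) for CD8-depleted and -0.67 (SE 0.46, adjusted p = 1) for CD3e-/-. Pkm, pyruvate kinase of muscle, whose M1 and M2 splice forms are counted together here, had 764 and 641 CPM in CD8-depleted sets and 144 and 630.4 CPM in CD3e-/- sets, against 769 and 877 CPM in WT sets. Its log2 fold changes against WT over 5 sets were -0.26 (SE 0.36) for CD8-depleted and -0.61 (SE 0.45) for CD3e-/-, and the step between CD8-depleted set 1 and WT set 1 was small beside the spread of either group.

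Aldoa and Gapdh, the muscle aldolase and the dehydrogenase often taken as a reference transcript, did not separate the groups. Aldoa had 6162 and 4499 CPM in CD8-depleted sets and 695 and 5312 CPM in CD3e-/- sets, against 4837 and 6629 CPM in WT sets. Gapdh had 7486 and 3697 CPM in CD8-depleted sets and 251 and 4832 CPM in CD3e-/- sets, against 4653 and 6420.2 CPM in WT sets. The 2 CD8-depleted sets held the highest and, apart from CD3e-/- set 1, the lowest Gapdh level of all. The log2 fold change of CD8-depleted against WT was -0.15 (SE 0.41) for Aldoa and -0.03 (SE 0.42, interval -0.89 to 0.83) for Gapdh over 5 sets, an interval that leaves room for a difference either way. Every cell had reads of both genes, and the median cell had 6295 and 3102 CPM of Gapdh in CD8-depleted and 297 and 3926 CPM in CD3e-/-, against 4425 and 6323 CPM in WT. Together these 2 made up 69.6% and 65.4% of the CPM of the 10 genes in CD8-depleted sets and 32.8% and 64.8% in CD3e-/- sets, against 59.4% and 61.4% in WT sets. Gapdh shares 68 bases of exon with Iffo1, Aldoa 25 with Fam57b and Pfkm 18 with Senp1 on the opposite strand, where reads of these genes cannot be told apart without strand.

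Ldhb was the gene of the 10 with the lowest estimate against WT over all cells, for both groups and over 6 and 5 sets, though not in cells with 85% to 95% of their counts on mitochondrially encoded genes. It had 2363 and 1510.5 CPM in CD8-depleted sets and 207 and 2275 CPM in CD3e-/- sets, against 2934 and 4544 CPM in WT sets. All 4 sets of the other groups were below both WT sets. The means were 1937 ± 603 CPM for CD8-depleted and 1241 ± 1462 CPM for CD3e-/-, against 3739 ± 1138 CPM for WT (SD, n = 2 sets each). Over 6 sets the log2 fold change of CD8-depleted against WT was -0.98 (SE 1.45, adjusted p = 1), and over 5 sets it was -1.01 (SE 0.41, unadjusted p = 0.0185, adjusted p = 0.372, edgeR). For CD3e-/- against WT it was -1.88 (SE 1.48) over 6 sets and -0.97 (SE 0.51, adjusted p = 1) over 5. None passed the threshold. CD8-depleted set 2, the set with the raised endothelial and fibroblast sums, was in CPM the lowest of the 5 large sets for Ldhb, Gapdh, Aldoa, Pfkm and Slc2a4. It was also the lowest for Slc2a1, Hk1 and, by a small step, Ldha. Without it the log2 fold changes of CD8-depleted against WT were -0.66 for Ldhb, 0.44 for Gapdh, 0.11 for Aldoa, -0.18 for Pfkm and -0.041 for Slc2a4, against -0.98, 0.000036, -0.13, -0.51 and -0.36 over 6 sets. The part of other cell types in these levels was not tested.

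In single cells the Ldhb level was spread widely. The lowest, median and highest cell had 145, 1963 and 5200.1 CPM in CD8-depleted set 1 and 107, 1404 and 3172 CPM in set 2. They had 0, 132 and 897 CPM in CD3e-/- set 1 and 349, 1818 and 3746 CPM in set 2. In WT they had 829, 2547 and 5497 CPM in set 1 and 54.9, 3067 and 10952 CPM in set 2. The median cells of the CD8-depleted and CD3e-/- sets thus all lay below those of the WT sets, while the ranges of cells overlapped. The coefficient of variation over cells was 0.452 and 0.482 in CD8-depleted and 1.16 and 0.429 in CD3e-/-, against 0.383 and 0.599 in WT.

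Ldha, in contrast, overlapped between all groups. It had 1588 and 1161 CPM in CD8-depleted sets and 809 and 1391 CPM in CD3e-/- sets, against 1170.2 and 1425 CPM in WT sets, with log2 fold changes over 5 sets of 0.04 (SE 0.37) for CD8-depleted and -0.13 (SE 0.46) for CD3e-/- against WT. The share of Ldha in the 2 lactate dehydrogenase transcripts, per kilobase, needs no scaling between libraries. It was 24.2% (Wilson 95% interval 23.7% to 24.6%) and 26.7% (26.1% to 27.4%) in CD8-depleted sets and 64.98% (60.4% to 69.3%) and 22.5% (22.2% to 22.7%) in CD3e-/- sets, against 15.9% (15.7% to 16.1%) and 12.95% (12.8% to 13.1%) in WT sets. These intervals cover counting error only, and reads of PCR-amplified cDNA are not independent molecules.

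All 4 CD8-depleted and CD3e-/- sets held a larger Ldha share than both WT sets. CD8-depleted exceeded WT by a mean of 11.02 percentage points with a pooled SD of 1.95 points between sets, and CD3e-/- exceeded WT by 29.3 points, or by 8.05 points with set 2 alone. CD3e-/- and CD8-depleted sets overlapped. In an exact two-sided permutation test 2 sets against 2 cannot give a p below 0.333, which is what both comparisons with WT gave (adjusted p = 0.375 over 9 tests of 3 shares), and the design could not reach significance. In single cells the sets of both groups again lay above both WT sets, but CD3e-/- set 2 then lay above the CD8-depleted sets, whereas in summed counts it lay below them. The median cell had an Ldha share of 25.2% and 27.6% in CD8-depleted and 58.7% and 31.1% in CD3e-/-, against 16.96% and 15.4% in WT. Ldha exceeded 50% of the pair in 2 of 62 and 7 of 49 cells of CD8-depleted sets and 7 of 11 and 3 of 77 cells of CD3e-/- sets, against 0 of 59 and 0 of 62 WT cells.

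**Figure D3:**
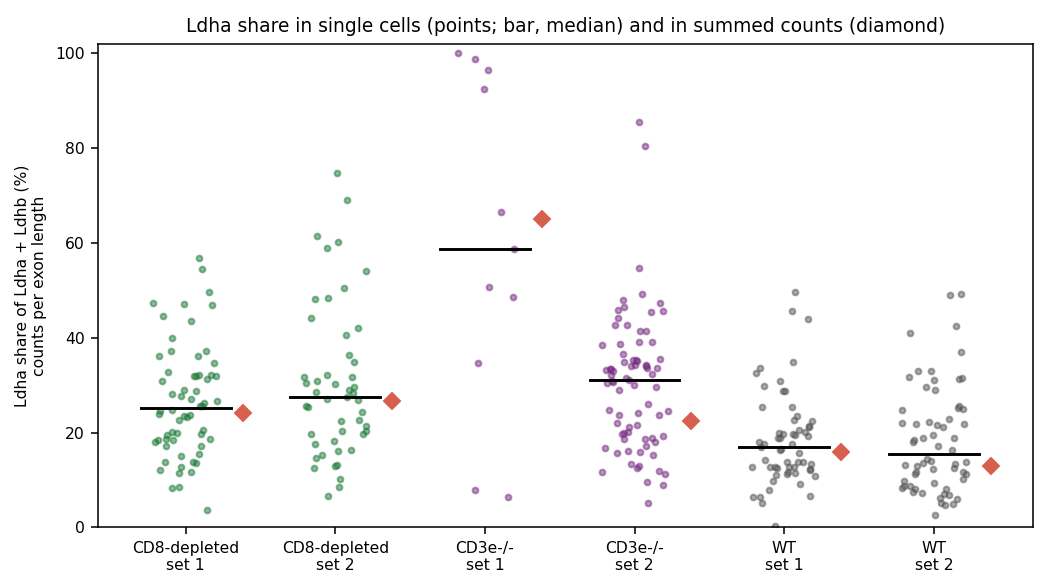
Ldha share of Ldha + Ldhb in percent, per kilobase of exon (vertical axis), in the cells of each set (points, with a bar at the median cell) and in the summed counts (diamond). The median cells of the CD8-depleted sets (25.2% and 27.6%) and CD3e-/- sets (58.7% and 31.1%) lie above those of the WT sets (16.96% and 15.4%), and no WT cell passes 50%.

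The share of counts on mitochondrially encoded genes moved with this result. Its median per cell was 94.0% and 90.8% in CD8-depleted sets and 94.1% and 92.1% in CD3e-/- sets, against 77.3% and 85.3% in WT sets. Within each of the 5 large sets, cells with a larger mitochondrial share had less Ldhb (Spearman's rho -0.34 to -0.66) and less Aldoa (-0.33 to -0.64). These values cover 46 to 75 cells of a set and are descriptions. Ldha followed no common direction (-0.22 to 0.28), but the Ldha share rose with the mitochondrial share in each large set (0.20 to 0.53). Nuclear counts per cell differed too. Their medians were 96256 and 98953 in CD8-depleted and 40699 and 223873 in CD3e-/- sets, against 413073 and 242696 in WT sets. Cells with more nuclear counts had more Ldhb (0.27 to 0.54) and a smaller Ldha share (-0.11 to -0.53) in each large set. In cells with 85% to 95% of their counts on mitochondrial genes, a band chosen after the data had been seen that held 161 cells, the Ldha share was 22.6% and 26.1% in CD8-depleted (35 and 36 cells) and 50.1% and 27.3% in CD3e-/- (5 and 39 cells), against 22.6% and 19.6% in WT (16 and 30 cells). There the difference of CD8-depleted from WT was 3.23 points, and CD8-depleted set 1 and WT set 1 did not separate. In a wider band, 80% to 95%, it was 7.51 points and the sets did not overlap. In the narrower band the median cell had an Ldha share of 20.1% and 27.3% in CD8-depleted, against 20.9% and 22.1% in WT. CD8-depleted set 1 thus lay below both WT sets by this measure. The CD3e-/- sets had 58.7% and 30.8%. The median cell of this band had 2188 and 1440.0 CPM of Ldhb in CD8-depleted and 132 and 1849 CPM in CD3e-/-, against 1863 and 2357 CPM in WT. The log2 fold change of Ldhb there for CD8-depleted against WT was -0.11 over 6 sets. Slc2a1 (-0.92), Slc2a4 (-0.53), Hk1 (-0.31), Hk2 (-0.24) and Pkm (-0.22) were lower. The part of the mitochondrial share in the difference between all cells was not tested beyond these bands.

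**Figure D4:**
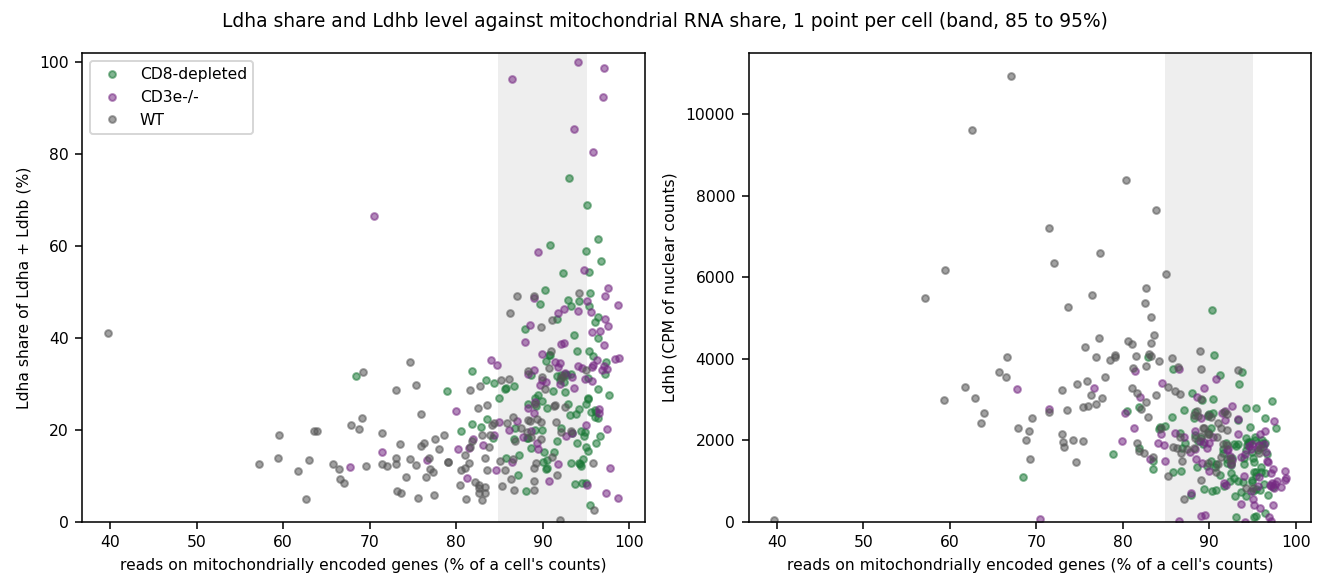
Ldha share of Ldha + Ldhb in percent (left) and Ldhb level in CPM of nuclear counts (right) against the share of a cell's counts on mitochondrially encoded genes (horizontal axes, percent), with 1 point per cell coloured by group and the band from 85% to 95% shaded. WT cells reach to lower mitochondrial shares than the others, and within the band the summed Ldha shares are 22.6% and 26.1% in CD8-depleted, 50.1% and 27.3% in CD3e-/- and 22.6% and 19.6% in WT sets.

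The groups can also be set side by side by counting genes whose sets did not overlap. In CPM, 6 of the 10 (Slc2a1, Slc2a4, Hk1, Pfkm, Pkm and Ldhb) were lower in both CD8-depleted sets than in both WT sets, against 19.8% of all genes, and 0 of 10 were higher in both, against 21% of all genes. With TMM-scaled levels 3 of the 10 were lower (Slc2a1, Hk1 and Ldhb), against 20.5% of all genes, and 0 were higher, against 20.6%. For CD3e-/- against WT, 4 of 10 (Slc2a4, Pfkm, Pkm and Ldhb) were lower in both sets, against 8.7% of all genes, and 1 (Slc2a1) was higher in both, against 28%. With TMM scaling 5 of 10 (Slc2a4, Hk2, Pfkm, Pkm and Ldhb) were lower, against 17.2% of all genes, and 0 were higher, against 19.3%. With CD3e-/- set 2 alone the same 4 lay below both WT sets, against 18.4% of all genes, and Slc2a1 lay above both, against 39.9%. Pkm was lower in both CD3e-/- than in both CD8-depleted sets (7.91% of all genes were), and Slc2a1 and Hk1 were higher (26.4%). For Pkm the step between CD3e-/- set 2 (630.4 CPM) and CD8-depleted set 2 (640.6 CPM) was small. With TMM scaling Pkm was again lower (16%), and Hk1 alone was higher (15%), since Slc2a1 overlapped. Plain library totals in place of TMM shifted the median of all genes by 0.68 log2 units for CD3e-/- against WT and 0.70 for CD3e-/- against CD8-depleted over 6 sets, and by 0.18 and 0.19 over 5 sets. For CD8-depleted against WT the shift was -0.02.

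The other genes of the pathway were read the same way. Of 23 further genes of glucose transport, glycolysis and lactate export, 20 were tested over 5 sets, and Slc2a3, Aldoc and Eno2 were too low. None passed in any comparison, and 13 of 20 estimates were below 0 for CD8-depleted against WT, 16 of 20 for CD3e-/- against WT and 11 of 20 for CD3e-/- against CD8-depleted, with medians of -0.16, -0.38 and -0.11. Of 12 genes of glycogen synthesis and breakdown none passed either, with 10, 8 and 3 of 12 below 0 and medians of -0.46, -0.19 and 0.39.

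The further genes with the smallest p over 5 sets included Pfkp, the platelet subunit of phosphofructokinase. It had 161 and 112 CPM in CD8-depleted sets and 56.2 and 162 CPM in CD3e-/- sets, against 82.1 and 63.8 CPM in WT sets, and its log2 fold change against WT was 0.91 (SE 0.38, unadjusted p = 0.0225) for CD8-depleted. As a share of Pfkp and Pfkm per kilobase, a pair chosen after its values had been seen and so not tested, Pfkp made up 6.41% and 7.16% in CD8-depleted sets and 6.92% and 7.53% in CD3e-/- sets, against 2.92% and 2.28% in WT sets. Within the 85% to 95% mitochondrial band it made up 6.74% and 5.78% in CD8-depleted and 4.75% and 6.94% in CD3e-/-, against 1.88% and 2.12% in WT. Pgam2, the muscle phosphoglycerate mutase, had 3713 and 3521 CPM in CD8-depleted sets and 322.5 and 2388 CPM in CD3e-/- sets, against 1764 and 2321 CPM in WT sets (log2 fold change 0.78 for CD8-depleted against WT). Eno3, the muscle enolase, had 275 and 2225 CPM in CD3e-/- sets and 4446 and 4487 CPM in CD8-depleted sets, against 2014 and 3451 CPM in WT sets, and its log2 fold change for CD3e-/- against CD8-depleted was -1.19 over 5 sets (unadjusted p = 0.0287). None of these differences passed adjustment.

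Slc16a1, which encodes the lactate and pyruvate carrier MCT1, had 160.3 and 157 CPM in CD8-depleted sets and 127 and 276 CPM in CD3e-/- sets, against 498 and 171 CPM in WT sets, and was lower in CD8-depleted than in WT by a log2 fold change of -1.01 (SE 0.38, unadjusted p = 0.0127, adjusted p = 0.329). WT set 1 alone was far above the rest. Pfkfb1, a bifunctional enzyme that sets fructose 2,6-bisphosphate, had 2.22 and 5.85 CPM in CD8-depleted sets and 24.8 and 4.45 CPM in CD3e-/- sets, against 13.97 and 17.5 CPM in WT sets (-2.02 for CD8-depleted and -2.05 for CD3e-/- over 5 sets). The CD8-depleted levels rest on 17 and 32 counts and that of CD3e-/- set 1 on 15. In WT set 2, 1 cell gave 54.4% of the counts of Pfkfb1. Pfkfb2, a related gene for the heart form of this enzyme, had 33.1 and 42.4 CPM in CD3e-/- sets and 10.6 and 10.8 CPM in CD8-depleted sets, against 38.96 and 9.83 CPM in WT sets (1.80 for CD3e-/- against CD8-depleted, unadjusted p = 0.0127). Its level in CD3e-/- set 1 rests on 20 counts, 65% of them from 1 cell, and 1 cell gave 50% of those in WT set 2. Ugp2, which makes UDP-glucose for glycogen, had 175 and 679 CPM in CD3e-/- sets and 305 and 238 CPM in CD8-depleted sets, against 493 and 339 CPM in WT sets (1.13 for CD3e-/- against CD8-depleted, unadjusted p = 0.0102). Slc16a3, the lactate exporter MCT4, was almost unread, with 0 and 46 counts in CD3e-/- sets and 6 and 7 in CD8-depleted sets, against 5 and 1 in WT sets. Slc2a12, the transporter GLUT12, had 4 and 28 counts in CD3e-/- sets and 2 and 3 in CD8-depleted sets, against 278 and 20 in WT sets, where 1 cell gave 38.8% of the 278. Its log2 fold change against WT over 5 sets was -2.50 (SE 1.88) for CD3e-/- and -3.85 (SE 1.60, unadjusted p = 0.0218, adjusted p = 0.395) for CD8-depleted, the last resting on 5 reads in all. WT set 1 stood far above the rest, and without it the estimate for CD8-depleted was -1.46.

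Within sets, the abundant members varied together from cell to cell. Over the 5 sets of at least 30 cells, thinned to 50000 nuclear counts (299 cells), the median Pearson correlation of log2(CPM + 1) was 0.59 for Aldoa and Gapdh, with 0.40 to 0.87 in the single sets, 0.55 for Gapdh and Ldhb, 0.46 for Aldoa and Ldhb and 0.45 for Gapdh and Pkm. 38 of the 45 pairs had a median above 0, and 12 were above 0 in all 5 sets. The same count was not made for other pairs of genes, so it is not shown to be particular to the members. Aldoa (Spearman's rho 0.33 to 0.57), Gapdh (0.09 to 0.53) and Ldhb (0.27 to 0.54) also rose with nuclear counts per cell in each of these sets. The correlations are descriptions, since the cells of a set share their preparation, and the weak values of rare transcripts such as Slc2a1 and Hk1 rest on sparse counts and are no finding. Ldha and Ldhb had a median of 0.04.

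**Figure D5:**
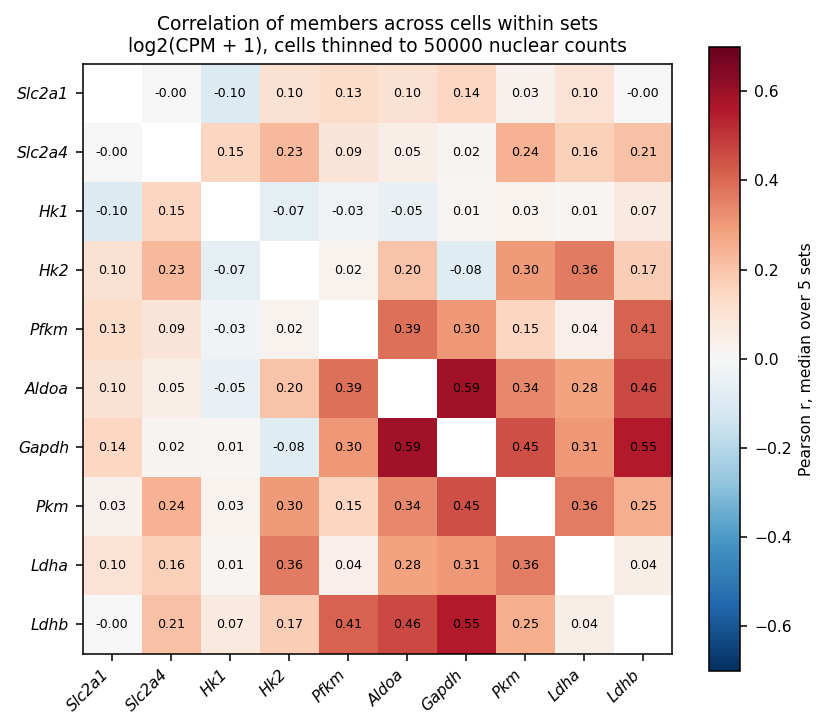
Median over 5 sets of the Pearson correlation between each pair of the 10 genes across the cells of a set, on log2(CPM + 1) with cells thinned to 50000 nuclear counts; the colour scale runs from blue (below 0) to red (above 0). The red block joins Aldoa, Gapdh and Ldhb (0.46 to 0.59), and the rows of Slc2a1 and Hk1 are pale.

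Measured against the mean of the other 9, Aldoa had the highest median r of the 10 (0.60), followed by Gapdh (0.51), Ldhb (0.50), Pkm (0.47) and Ldha (0.42). Pfkm (0.24), Hk2 (0.18), Slc2a4 (0.14), Slc2a1 (0.14) and Hk1 (-0.04) had the lowest medians. The order differed between sets. Aldoa ran from 0.13 in CD8-depleted set 1, where Ldhb had 0.59, to 0.81 in WT set 2. The 5 other genes whose cell-to-cell pattern was most like the mean of all 10, among 5209 genes compared with a median r of 0.06, were Cox8a (0.62), Chchd10 (0.61), Uqcrc1 (0.61), Tnnc1 (0.61) and Fabp3 (0.60). Cox8a and Uqcrc1 encode parts of the respiratory chain, Chchd10 a protein of the mitochondrial intermembrane space, Tnnc1 cardiac troponin C and Fabp3 the heart fatty acid carrier. With Spearman's correlation 0 of these 5 were among the top 5, and without thinning 1 of 5 (Fabp3) was.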

How the data were processed

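Single cardiomyocytes of 3 groups were sequenced by Smart-seq2. Reads went through fastp 0.21.0 and STAR 2.7.5c with mm10 per the labels, and the authors deposited raw counts per gene from featureCounts, whose version is not given in the sources used here, while the methods of the study name another aligner and build. The file's coordinates are those of mm10. The values are read counts over the exons of a gene, with no molecular identifiers, and exon length is the joint length of all exons.

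From these, cells with 3000 or more detected genes were kept, the 13 genes of mitochondrial DNA were left out, and counts were added up within each of 6 numbered sets, which are the replicates (n = 2 per group). CPM are of nuclear counts. edgeR 4.0.16, with filterByExpr, TMM factors and the quasi-likelihood test, was fitted on all genes, in 1 fit of the 3 groups, with Benjamini-Hochberg adjustment over all genes tested. Shares of paired genes were divided by exon length, with Wilson 95% intervals, and compared by exact permutation tests over sets. p-values measure the spread between sets only. Across cells, Pearson correlations of log2(CPM + 1) were taken within sets of at least 30 cells thinned to 50000 nuclear counts.

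The members and lists were chosen with earlier results of these data known. All 10 members are named. Of the other pathway genes, those past the threshold were to be named and otherwise the 2 with the smallest p in each direction of each comparison over 5 sets, and of all genes with at least 20 CPM the 5 most like the mean of the members. Alternatives were DESeq2 1.42.0, plain library totals, no filter on low counts, all cells, cells with 5000 or more genes, thinned cells, cells weighted alike (the mean over cells of log2(CPM + 1), tested with limma 3.58.1), the highest cell left out, mitochondrial genes kept, a replicate block and each set left out. The bands of mitochondrial share, combinations with 5 sets, the fit of 4 sets and the crossed block were added after the data had been seen. Promoter sequences are from RefSeq (GRCm38.p6).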

Additional observations from a re-analysis of the deposited data

How the results depend on the processing

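In each of the 3 comparisons, 0 of the 10 genes passed under every alternative, except that 8 passed for CD3e-/- against WT and 8 against CD8-depleted with CD3e-/- set 2 left out, where CD3e-/- rests on the 11 cells of set 1, which the fit takes to vary as other sets do. With any 1 set left out the members called ran from 0 to 8. The count over all genes was 0 in each comparison, and depended on the setting. For CD8-depleted against WT it was 8 with DESeq2, 12 without a filter on low counts, and 0 to 47 with 1 set left out. It was 2 in the 4 sets of these groups alone. Over 5 sets it was 32, and with a further choice 10 with a replicate block, 10 with plain library totals, 6 with thinned cells, 45 with the highest cell left out, 156 with DESeq2 and 2 in the 85% to 95% mitochondrial band. For CD3e-/- against WT it was 611 with DESeq2, 303 without a filter, and 0 to 4588 with 1 set left out. Over 5 sets it was 17, and with the same further choices 15, 6, 3, 3, 13 and 2. For CD3e-/- against CD8-depleted it was 16 with DESeq2, 106 without a filter, and 0 to 3472 with 1 set left out. Over 5 sets it was 2, with a replicate block 3, with plain library totals 1, with the highest cell left out 1 and with DESeq2 10. With cells weighted alike, tested with limma, it was 0 over 6 and over 5 sets in each comparison. The causes were not tested. The set numbers did not pair the sets (correlations of same-numbered deviations -0.18, -0.03 and 0.03), and over 6 sets the replicate block left each count at 0, as did a crossed block with the CD3e-/- numbers swapped.

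Some log2 fold changes, none of which passed the threshold over 6 sets, changed sign. For CD8-depleted against WT, Gapdh (0.000036 over 6 sets) was -0.029 without a filter, -0.041 with all cells, -0.0074 with cells of 5000 or more genes, -0.062 with mitochondrial genes kept and -0.15 with cells weighted alike, and Aldoa was 0.16 with a replicate block and 0.29 in the 85% to 95% band. With 1 set left out, Hk2 ran over -0.32 to 0.071, Aldoa -0.50 to 0.33, Gapdh -0.68 to 0.46, Pkm -0.51 to 0.051 and Ldha -0.24 to 0.42. Against WT, CD3e-/- had Slc2a1 at 0.30 with plain library totals, 0.54 with cells weighted alike and 0.019 with the highest cell left out, Hk1 at -0.45 with cells of 5000 or more genes and -0.15 with thinned cells, Ugp2 at 0.063 with plain library totals and Pfkfb2 at -0.058 with thinned cells and -0.92 in the band. With 1 set left out, Slc2a1 ran over -0.91 to 0.044, Hk1 -0.12 to 0.56, Pfkp -1.56 to 0.96, Slc2a12 -2.50 to 0.67, Ugp2 -2.42 to 0.53 and Pfkfb2 -0.66 to 1.19. Against CD8-depleted, CD3e-/- had Slc16a1 at 0.38 with plain library totals, 0.13 with cells of 5000 or more genes and 0.048 with the highest cell left out, Slc16a3 at 0.25 with plain library totals, 0.0016 with mitochondrial genes kept and 0.19 with the highest cell left out, and Ugp2 at -0.050 in the band. With 1 set left out, Slc2a1 ran over -0.22 to 0.78, Ldhb -4.44 to 0.040, Pfkp -2.49 to 0.056, Slc16a1 -1.52 to 0.61, Pfkfb1 -0.028 to 1.62, Slc16a3 -0.35 to 0.71 and Ugp2 -1.84 to 1.13.

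The Hk1 share for CD8-depleted against WT ran over -4.36 to -0.937 points with 1 set left out. The Slc2a1 share for CD8-depleted against WT was -1.02 points with all cells, -0.726 with cells of 5000 or more genes, -1.13 with the highest cell left out, -0.570 over median cells and 0.468 with thinned cells. The Ldha share for CD8-depleted against WT was 15.6 points when counts were not divided by exon length, 7.51 in the 80% to 95% band and 3.23 in the 85% to 95% band, and 9.54 to 12.5 with 1 set left out.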
